A study of Mus musculus with 8 samples.

Results

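The comparison described here set primed against naive mouse embryonic stem cells in the libraries labelled Ino80 knockout, 2 libraries in each state. All libraries of the series came from a line with a conditional Ino80 allele, labelled INO80 CKO. Naive cells were cultured in N2B27 with the MEK inhibitor PD0325901, the GSK3 inhibitor CHIR99021 and LIF at 1000 units per ml, on gelatin. Primed cells were cultured in N2B27 with FGF2 at 12 ng per ml, Activin A at 20 ng per ml and the tankyrase inhibitor XAV939 at 2 uM, on fibronectin. The knockout libraries came from cells given 100 nM 4-OHT, a tamoxifen metabolite that induces the deletion, for 2 days and grown for another 2 days. The recombinase that makes the deletion is not named in the labels. The corresponding 2 naive and 2 primed wild-type libraries carry the same line label, and the labels do not say if those cells received 4-OHT. Genotype and that treatment therefore cannot be told apart wherever knockout and wild type are compared. Genes entered the knockout comparison when at least 2 of the 4 libraries held at least 1 deposited RPKM (reads scaled to gene length and library size), which left 12452 of 24505 listed genes. At the edge of that filter, Vill was tested with a second highest value of 1.00025 RPKM and Hydin was left out at 0.998282.

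Naive cells correspond to the epiblast before implantation, and primed cells to the epiblast after it. The naive state is held by a set of transcription factors, among them Esrrb, Klf4 and Tfcp2l1, that respond to LIF and to release of Wnt target genes from repression by Tcf7l1. In the primed state FGF and Activin signalling take over, Otx2 and the de novo DNA methyltransferases are produced, and the cells become ready to form the germ layers. INO80 is the ATPase of a chromatin remodelling complex that moves and spaces nucleosomes. The title of the series concerns bivalent promoters, which carry an activating and a repressive histone mark together, and the question asked here is which parts of the naive to primed programme appear in libraries labelled knockout.

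No source used here says that naive and primed values share a scale, and the deposited RPKM of a library summed to between 398427 and 404303 in the naive and between 341480.0 and 507598 in the primed libraries of both genotypes. The 4 knockout libraries were therefore first brought to one distribution by quantile normalization, and values below are normalized RPKM unless called deposited. A difference is primed minus naive on the log2(RPKM + 1) scale, on which changes of weakly expressed genes are understated, with its standard error (SE). A gene rose or fell here when limma's adjusted p was under 0.05 and the difference was at least 2-fold, since the small spread between libraries put 81.9% of all tested genes past the p threshold alone. Each replicate pair had a Spearman correlation across genes of 0.990, while naive and primed knockout libraries were correlated at 0.910 to 0.913. The labels do not tell separate cultures from repeat libraries, so a p-value here covers library to library spread, which may be technical. Sequencing depth is unknown because the files hold no counts. Ino80 itself stood at 15.5 and 14.8 RPKM in the naive knockout libraries against 15.9 and 16.2 in the naive wild type, all 8 libraries normalized together, and at 11.5 and 11.6 against 14.1 and 13.9 in the primed state. As deposited, the naive values were 15.9 and 15.1 RPKM in knockout and 17.0 and 14.5 in wild type, so the groups overlapped. The deposited primed values were 9.12 and 8.74 RPKM in knockout and 15.9 and 20.3 in wild type. The deposited value is one per gene and can include exons that the deletion leaves intact, so it checks the label only weakly.

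In the libraries labelled knockout, 1360 genes rose and 1424 fell from naive to primed, 10.9% and 11.4% of the genes tested and together 22.4%. Taken as deposited the split was 922 higher and 2144 lower, and the median difference over all genes moved from 0.030 to -0.27. Among the changes beyond 4 on the log2 scale were 35 gains and 100 losses. Of the genes tested, 10324 had at least 1 RPKM in all 4 libraries, 1220 in both naive and no primed library, and 591 in both primed and no naive library. Genes of the last 2 kinds passed the filter only through the state in which they were high. Among all genes whose libraries did not overlap and whose higher state reached 5 RPKM, the largest loss was that of Dppa5a, a small RNA-binding protein of naive cells with near-identical copies in the genome. Its level was 1309 and 1515 RPKM in the naive and 0.217 and 0.206 RPKM in the primed libraries, a difference of -10.18 ± 0.067 (SE; adjusted p = 8.10e-09). Next came Zfp42, the threonine dehydrogenase gene Tdh, the myosin light chain gene Mylpf, Fbxo15 and Esrrb, followed by Rpl10l, Tex19.1, Triml2 and the water and glycerol channel gene Aqp3. The last of these fell by 6.69. The largest gain was that of Ccnd2, the gene of cyclin D2, at 1.82 and 1.71 RPKM in the naive and 121 and 124 RPKM in the primed libraries, a difference of 5.48 ± 0.040 (SE; adjusted p = 8.10e-09). Both primed libraries stood far above both naive ones, an order found in 47.3% of all tested genes, with the reverse in 43.2%. The receptor activity modifier Ramp3 (5.31), the matrix glycoprotein genes Thbs1 (5.18) and Tnc (4.86), Fndc3c1, the axonal kinesin gene Kif1a, the actin crosslinker gene Flnc, T, the kinase gene Pim2 and the metalloprotease gene Mmp25 made up the rest of the first 10.

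**Figure D1:**
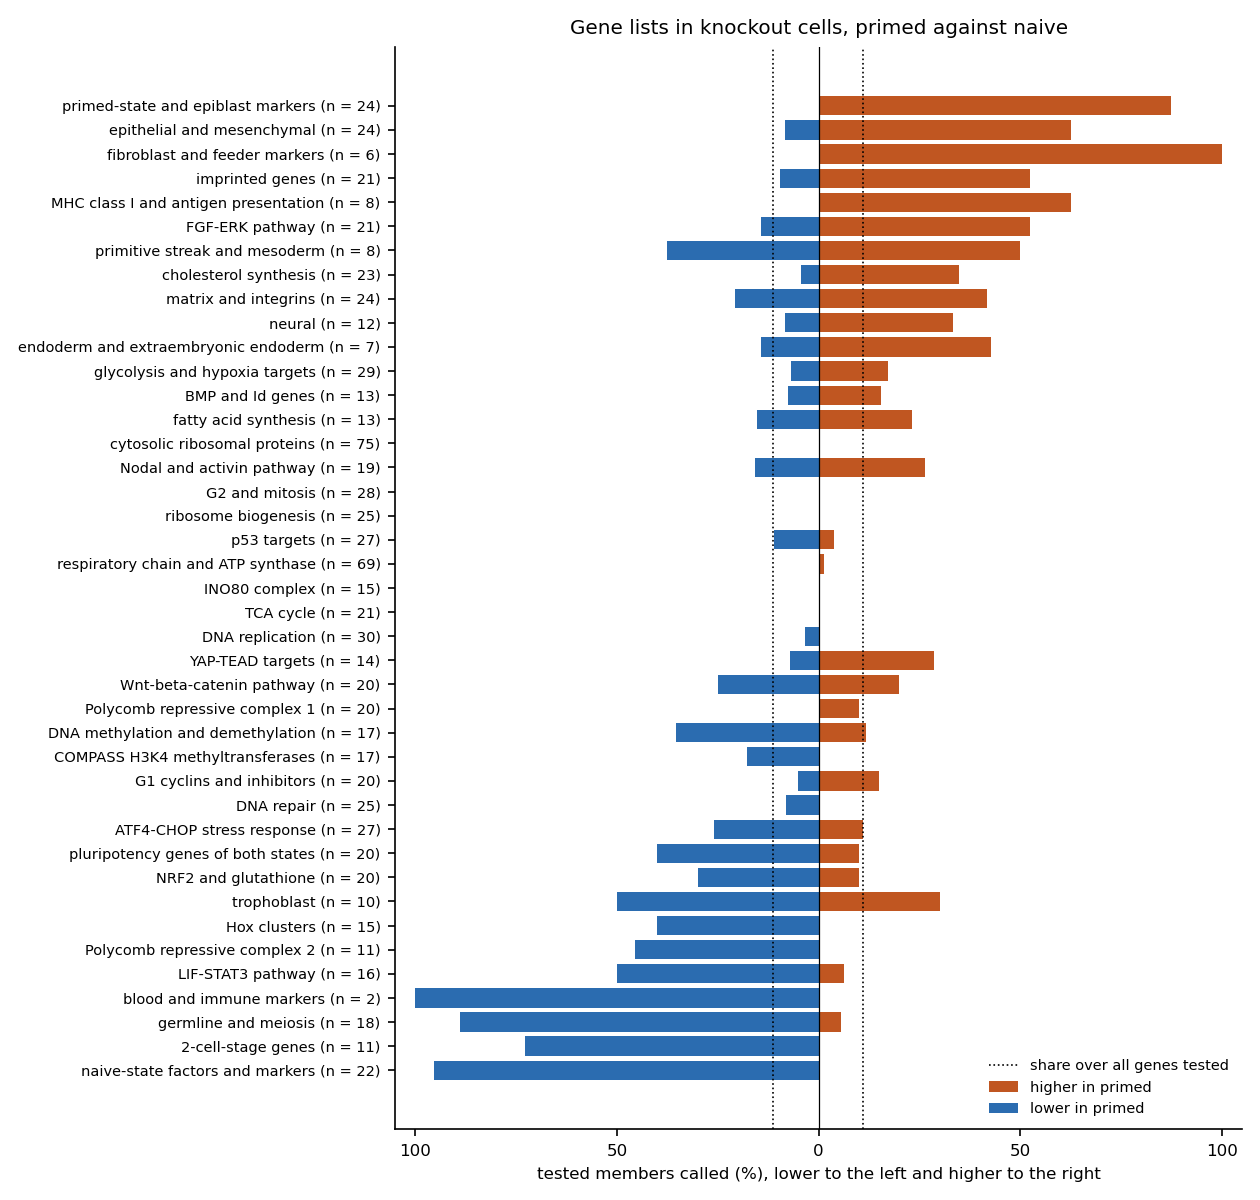
Share of tested members called lower (blue, to the left) or higher (orange, to the right) in primed than in naive knockout libraries, in percent, for 41 gene lists ordered by their median difference; n is the number of members tested and dotted lines mark the shares over all genes tested (10.9% higher, 11.4% lower). Naive, 2-cell-stage and germline lists lie at the bottom, primed and epithelial or mesenchymal lists at the top, and ribosomal and cell division lists show almost no calls.

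Naive factors were lost in the libraries labelled knockout. Of 22 naive-state factors and markers, all tested, 21 fell and 0 rose, with a median difference of -5.10 beside 0.030 over all genes. Part of this count is fixed by the filter. Zfp42, Esrrb, Klf2, Tfcp2l1 and Tbx3 were among members under 1 deposited RPKM in both primed libraries. Such genes passed through the naive libraries alone, so their direction follows from the filter. Klf4, Klf5 and Zfp57 passed in both states and also fell. Zfp42, a zinc finger gene known as Rex1 and used to mark the naive state, stood at 256 and 261 RPKM in the naive and 0.03698 and 0.151 RPKM in the primed libraries. The groups were far apart, with a difference of -7.89 ± 0.056 (SE; adjusted p = 8.10e-09). Esrrb, an orphan nuclear receptor that can stand in for parts of the LIF and GSK3 inhibitor signal, went from 195 and 194 RPKM to 0.289 and 0.326 RPKM and fell by 7.22 ± 0.037 (SE; adjusted p = 8.10e-09). Tfcp2l1, which acts downstream of both LIF and GSK3 inhibition, went from 95.8 and 98.1 RPKM to 0.409 and 0.378 RPKM. These levels left little of either RNA in primed libraries. Tbx3 fell by 5.67, Klf2 by 5.56, Klf4 by 5.17 and Klf5 by 2.36. Primed libraries still held Klf5 at 9.76 and 9.99 RPKM and Zfp57, the factor that protects methylation at imprinted regions, at 16.2 and 15.5 RPKM, so these losses were incomplete. The gene of the list that was not called was Gbx2, a homeobox gene that responds to LIF, with 10.8 and 10.7 RPKM in the naive and 6.76 and 5.43 RPKM in the primed libraries and a difference of -0.73. Summed over the list, the level was 3340.1 and 3561 RPKM in the naive and 41.7 and 40.0 in the primed libraries.

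The primed programme was present in the same libraries. Of 24 primed-state and epiblast markers, 21 rose and 0 fell, with a median difference of 2.45. Otx2, Fgf5 and Pou3f1 were among members under 1 deposited RPKM in both naive libraries. Such genes passed the filter through the primed libraries alone, so their direction follows from it. Dnmt3b, Dnmt3a, Pim2 and Cdh2 had at least 1 deposited RPKM in all 4 libraries and also rose. Otx2, the homeobox factor that directs enhancer use on exit from the naive state, stood at 0.377 and 0.1900 RPKM in the naive and 15.2 and 16.5 RPKM in the primed libraries. The difference was 3.72 ± 0.083 (SE; adjusted p = 1.32e-07). Dnmt3b, a de novo DNA methyltransferase, was already present at 18.8 and 17.9 RPKM in naive libraries and reached 177 RPKM in both primed ones, a difference of 3.200 ± 0.034 (SE; adjusted p = 1.03e-08). Fgf5, the growth factor gene by which the post-implantation epiblast is most often recognized, went from 0.0845 and 0.0895 RPKM to 20.6 and 19.9 RPKM (4.29 ± 0.050, SE; adjusted p = 1.57e-08). In each of these genes both primed libraries exceeded both naive ones. Further rises were those of the POU factor gene Pou3f1 (2.78), Pim2 (4.88), the intermediate filament gene Nes (4.01), N-cadherin, encoded by Cdh2 (3.99), and Dnmt3a (1.45). The members that were not called were Etv4 with a difference of 0.77, Foxd3 with 0.26 and Tcf15 with -0.44. The markers that define the states, Zfp42 and Esrrb for naive and Otx2 and Dnmt3b for primed, were thus arranged as the labels say.

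**Figure D2:**
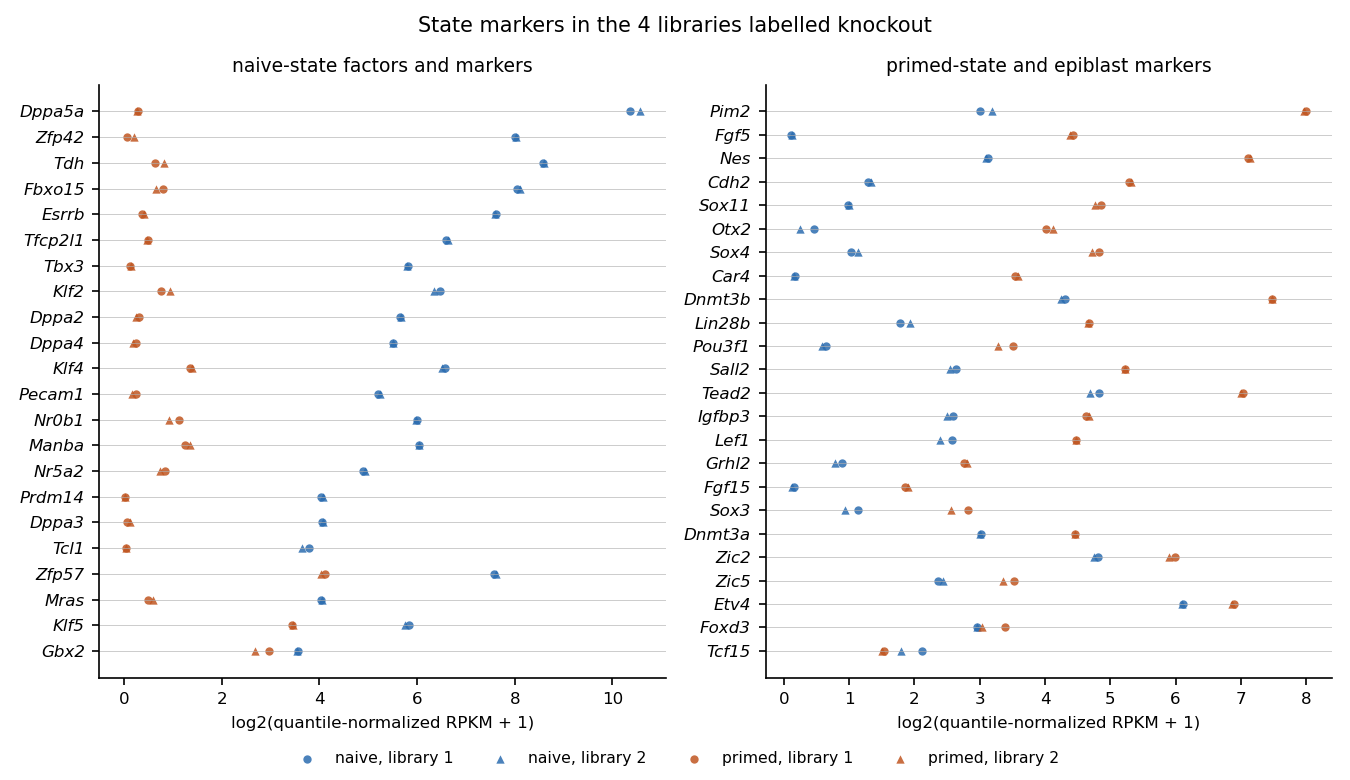
Levels of the 22 naive-state (left) and 24 primed-state (right) genes in the 4 libraries labelled knockout, as log2(quantile-normalized RPKM + 1), with naive libraries in blue, primed libraries in orange, circles for library 1 and triangles for library 2. The naive and primed points of Gbx2 lie close together on the left, and those of Foxd3, Tcf15 and Etv4 on the right, while the other genes separate by state.

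Among 20 pluripotency genes used in both states, 2 rose and 8 fell, with a median of -0.54. The share that rose was near the 10.9% over all tested genes, of which 11.4% fell. Dppa5a, Gdf3 and Fgf4 were among members under 1 RPKM in both primed libraries. Such genes passed the filter through the naive libraries alone, so their direction, and in part the count, follows from it. Pou5f1, which encodes OCT4, was at 671 RPKM in both naive and 686 and 679.6 RPKM in the primed libraries, with a difference of 0.024 (limma, adjusted p = 0.43). The sign turned to -0.076 with deposited values and to -0.17 with cyclic loess. Nanog was found at 527 and 565 RPKM in the naive and 40.9 and 40.96 RPKM in the primed libraries and fell by 3.71 ± 0.039 (SE; adjusted p = 1.01e-08). Sox2 stood at 132 and 128 RPKM and then at 63.4 and 57.01 RPKM, a difference of -1.102, which lost its call with median centring. Both RNAs thus remained expressed in primed libraries at a lower level. The largest fall in the list was that of Dppa5a (-10.18), which is also counted among the naive-state genes. Other members that fell were Gdf3, a ligand of the TGF-beta family (-5.74), Fgf4 (-4.93), the cell cycle factor Mybl2 (-3.05) and Zfp296 (-3.03). Lin28a, an inhibitor of let-7 processing, rose by 2.86, as did Utf1 by 1.63.

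The 2 media differ in LIF, FGF2, Activin A and inhibitors, and genes of these pathways are given next. In the LIF-STAT3 pathway 8 of 16 genes fell, 1 rose and the median was -1.23. Tfcp2l1, the member with the largest fall, passed the filter through the naive libraries alone, so its direction follows from it. The receptor gene Lifr stood at 8.82 and 8.84 RPKM in the naive and 1.43 and 1.52 RPKM in the primed libraries, and the feedback inhibitor gene Socs3 at 21.3 and 20.6 RPKM and then at 3.89 and 3.68 RPKM. Both fell, by 1.99 and 2.199. Stat3 fell by 1.73 and the coactivator gene Bcl3 by 4.01, whereas the co-receptor gene Il6st had a difference of -0.74 and was not called. In the FGF-ERK pathway 11 of 21 tested genes rose and 3 fell, with a median of 1.07. Dusp6, an ERK phosphatase gene that ERK itself induces, went from 10.1 and 9.74 RPKM to 224 and 219 RPKM (4.34 ± 0.033, SE; adjusted p = 8.10e-09). Dusp4 rose by 3.44, Myc by 3.74 and Fgf5 by 4.29, while the ligand gene Fgf4 fell by 4.93 and the ETS factor gene Etv5 by 1.21. Fgf5 passed the filter through the primed and Fgf4 through the naive libraries alone, so their direction follows from it. The third gene that fell, the immediate early gene Fos, was at -1.02, and at -0.99, under the 2-fold limit, without primed knockout replicate 2. Its call was also lost with median centring, with all 8 libraries together and in limma's test against a 2-fold difference.

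Of 19 tested genes of the Nodal and activin pathway 5 rose and 3 fell. The median of 0.075 changed sign to -0.089 with deposited values. Lefty1, a secreted inhibitor of Nodal, went from 1.17 and 1.06 RPKM to 22.9 and 21.7 RPKM and rose by 3.46, the corepressor gene Skil by 1.98 and Smad3 by 1.53. The ligand genes went the other way, with Nodal at 58.8 and 56.7 RPKM in the naive and 27.2 and 25.3 RPKM in the primed libraries (a difference of -1.11) and Gdf3 falling by 5.74. Pcsk6, a convertase that processes such ligands, fell by 2.45. Gdf3 passed the filter through the naive libraries alone, so its direction follows from it. In the BMP and Id list 2 of 13 genes rose and 1 fell, near the 10.9% and 11.4% over all tested genes. Id2, an inhibitor of helix-loop-helix factors, went from 2.37 and 2.57 RPKM to 81.2 and 80.5 RPKM, whereas Id3 went from 31.1 and 29.2 to 6.41 and 5.02 RPKM. The 2 related genes therefore changed in opposite directions, by 4.56 and -2.22.

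In the Wnt and beta-catenin pathway 4 of 20 tested genes rose and 5 fell. Part of these counts is fixed by the filter. T and Wnt3 were under 1 deposited RPKM in both naive libraries and passed through the primed libraries alone. Cdx1 and Sp5 were under it in both primed libraries and passed through the naive libraries alone. The direction of such genes follows from the filter. The genes that fell are given first. Axin2, a scaffold gene of the destruction complex, went from 13.7 and 13.99 RPKM to 1.604 and 1.61 RPKM and fell by 2.51. Notum, which encodes a secreted Wnt inhibitor, fell by 5.33, and the homeobox genes Cdx1 and Cdx2 by 4.06 and 1.08. Sp5, a zinc finger gene that beta-catenin and TCF factors activate, went from 5.42 and 5.06 RPKM to 0.9097 and 0.878 RPKM and fell by 1.72. Its promoter is shown because it was the only 1 of 13 matched members of this list with the TCF/LEF motif CTTTGAT on either strand of the 250 bases before the start site, a motif found in 3.72% of the 27025 genes of the RefSeq promoter table. The stretch lies at chr2:70474673-70474922 (GRCm38.p6, + strand), and the capitals mark the motif.
Sp5: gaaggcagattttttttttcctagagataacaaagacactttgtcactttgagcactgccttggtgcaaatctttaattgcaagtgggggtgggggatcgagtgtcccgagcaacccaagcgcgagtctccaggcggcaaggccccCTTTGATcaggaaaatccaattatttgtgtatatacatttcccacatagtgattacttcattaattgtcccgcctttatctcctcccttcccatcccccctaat
The members that rose were T (4.903), Wnt3 (4.23), Lef1 (1.99) and Tcf7l2 (1.32), the last no longer called with deposited values. T, a ligand gene and 2 genes of the TCF family were thus higher in primed libraries while Axin2, Notum, Sp5, Cdx1 and Cdx2 were lower.

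Chromatin genes are given by complex. Among 17 tested genes of DNA methylation and demethylation, Dnmt3b (3.200) and Dnmt3a (1.45) rose and 6 genes fell. Over all tested genes 10.9% rose and 11.4% fell. Members under 1 RPKM in both primed libraries, Dnmt3l and Tet2 among them, passed the filter through the naive libraries alone. Their direction, and in part the count of falls, follows from it. Dnmt3l, the cofactor of de novo methylation, went from 44.5 and 43.3 RPKM to 0.0357 and 0.0354 RPKM and fell by 5.44 ± 0.046 (SE; adjusted p = 8.28e-09). Tet2, a methylcytosine dioxygenase gene, went from 33.1 and 32.8 RPKM to 0.589 and 0.592 RPKM, a difference of -4.41. Prdm14, which restrains methylation in naive cells, fell by 4.04 and Dppa3 by 3.97. Dnmt1, the maintenance enzyme, was at 82.9 and 81.1 RPKM in the naive and 79.6 and 81.00 RPKM in the primed libraries and was not called. Of 11 tested genes of Polycomb repressive complex 2, which deposits the repressive H3K27 mark, 5 fell and 0 rose, with a median of -0.86. Epop fell by 2.62, Mtf2 by 1.49, Ezh1 by 1.24 and the core subunit gene Suz12 from 93.1 and 101 RPKM to 41.3 and 40.1 RPKM, a difference of -1.23. The catalytic subunit gene Ezh2 had 75.8 and 78.2 RPKM in the naive and 78.2 and 79.9 RPKM in the primed libraries and a difference of 0.037. In Polycomb repressive complex 1, 2 of 20 genes rose (Yaf2 by 1.37 and Phc2 by 1.33) and 0 fell, a share near that over all genes, and with deposited values 2 rose and 4 fell. Of 17 COMPASS genes, which serve the activating H3K4 mark, the shared core subunit genes Ash2l (-1.62), Wdr5 (-1.605) and Rbbp5 (-1.39) fell and 0 rose. Among 15 genes of the INO80 complex 0 were called in either direction at the 2-fold limit, and differences ran from -0.68 for Ino80d to 0.83 for Actr5. At an unadjusted limma p under 0.05, which 10299 of all 12452 genes passed, 6 of them were higher and 6 lower.

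Germline, 2-cell-stage and imprinted genes are given next. In the germline and meiosis list, 16 of 18 tested members fell, 1 rose and the median was -2.11. Members under 1 RPKM in both primed libraries, Rpl10l and Tex19.1 among them, passed the filter through the naive libraries alone. Their direction is fixed by the filter, and so in part is the count. Rpl10l, a retrogene of ribosomal protein L10, went from 147 and 140.4 RPKM to 0.0309 and 0.06396 RPKM, and Tex19.1 from 145 and 151 RPKM to 0.137 and 0.0365 RPKM. The RNA-binding protein gene Dazl fell by 5.88 and the meiotic axis gene Hormad1 by 4.44. Tdrkh, a gene of the piRNA pathway, went the other way, from 0.441 and 0.339 RPKM to 4.82 and 4.59 RPKM (2.04), having passed through the primed libraries alone. Of 11 tested 2-cell-stage genes 8 fell and 0 rose, and the 8 had passed the filter through the naive libraries alone, which fixes their direction. Zscan4d was at 22.5 and 24.2 RPKM in the naive and 0.0155 and 0.0153 RPKM in the primed libraries, and Zscan4a, Zscan4c and Usp17la fell by 4.07, 3.44 and 3.34. The Zscan4 genes are near-identical copies, between which the counting could split reads. Of 21 tested imprinted genes 11 rose and 2 fell, with a median of 1.16, or 10 and 4 with deposited values. Nnat went from 3.04 and 2.97 RPKM to 116 and 111 RPKM (4.83 ± 0.039, SE; adjusted p = 8.14e-09), and Magel2, Sgce and H19 rose by 4.39, 2.11 and 1.79. Magel2 passed the filter through the primed libraries alone, so its rise follows from it. Plagl1, a zinc finger factor gene, fell by 3.31, and the adaptor gene Grb10 by 1.57. Of 15 tested Hox genes 6 fell and 0 rose, all of them from naive levels under 10 RPKM. The fall of any of them under 1 deposited RPKM in both primed libraries follows from the filter.

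Adhesion and cytoskeletal genes formed the list with the second highest median. Of 24 tested epithelial and mesenchymal genes 15 rose and 2 fell, with a median of 2.00. Both kinds were among those that rose: Cldn6, a tight junction claudin gene, went from 3.98 and 4.901 RPKM to 87.5 and 89.1 RPKM, and Tagln, a smooth muscle actin-binding protein gene, from 3.08 and 3.35 to 66.7 and 70.2 RPKM. The keratin gene Krt18 rose by 4.01 and the metalloprotease gene Mmp2 by 3.904. E-cadherin, encoded by Cdh1, had 251 and 258 RPKM in the naive and 123 and 124 RPKM in the primed libraries and fell by 1.04, a call lost with median centring. Of 24 matrix and integrin genes 10 rose and 5 fell. Lamb1, a laminin chain gene, rose by 3.18, while another, Lama1, fell by 3.24 and the secreted phosphoprotein gene Spp1 went from 573 and 605 RPKM to 11.5 and 13.6 RPKM.

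Markers of other cell types were read from 2 lists. Of 12 fibroblast and feeder markers 6 passed the filter. They did so through the primed libraries alone, so a rise follows from the filter and their count of calls is not given. The highest was Col3a1 at 0.168 and 0.0281 RPKM in the naive and 10.5 and 10.3 RPKM in the primed libraries. Summed over all 12 markers, the level was 1.68 and 1.21 RPKM in the naive and 24.3 and 22.8 in the primed libraries. These sums stand beside the rises of mesenchymal and matrix genes above, and the part of such cells in those rises was not tested. The other 6 markers stayed under the filter. Of 12 blood and immune markers 2 passed. The macrophage marker gene Cd68 had 17.9 and 19.3 RPKM in the naive and 4.64 and 4.87 RPKM in the primed libraries, and Cd3e, which passed through the naive libraries alone, 1.76 and 1.73 RPKM and then 0.0216 and 0.0214 RPKM. In bulk RNA, fewer cells of a type and less RNA per cell cannot be told apart. Among lineage genes, Gata4 had a difference of -0.23 from a naive mean of 1.78 ± 0.172 RPKM (SD, n = 2), Gata6 one of -0.99 and Sox1 one of 0.51. None of these was called, and Sox17 did not pass the filter. Gata6 lay just under the 2-fold limit and was called lower in 7 of 14 alternatives, at -1.22 with deposited values.

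Few genes of growth and division were called. Of 75 tested cytosolic ribosomal protein genes 0 were called, with a median of 0.11, while 43 were higher and 7 lower at the unadjusted limma p under 0.05 that 10299 of all 12452 genes passed. The calls were also 0 in each direction for 28 genes of G2 and mitosis (13 higher and 10 lower at the unadjusted p), 25 of ribosome biogenesis (11 and 4) and 21 of the TCA cycle (9 and 9). In DNA replication 1 of 30 genes fell, the origin recognition gene Orc1 (-1.16), and in the respiratory chain 1 of 69 rose, Ndufa2 (1.18). The medians of the TCA cycle, respiratory chain and DNA replication lists lay between -0.079 and -0.017 and turned positive with median centring. The Ndufa2 call was lost with deposited values. Among 20 tested G1 regulators Ccnd2 (5.48), Cdk6 (1.12) and Cdkn1c (1.16) rose and Rbl2 fell by 1.38. Over all tested genes 10.9% rose and 11.4% fell. The calls of Cdk6 and Cdkn1c were lost with deposited values. In the NRF2 and glutathione list 6 of 20 genes fell and 2 rose. Nqo1, a quinone reductase gene, went from 74.3 and 75.6 RPKM to 5.59 and 5.67 RPKM, a difference of -3.52.

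To find how much of the programme of wild-type cells was present, the 4 wild-type libraries were normalized and fitted apart from the knockout ones, so the comparisons share no library, only whatever scaling the authors applied within a state. From naive to primed 1770 genes rose and 1604 fell in wild type (13.6% and 12.3% of 13056 tested, where 84.1% passed the p threshold alone), or 2761 and 1165 with deposited values. Of the 1770 that rose, 1538 were tested in knockout. There 1042 rose as well, which is 58.9% of the wild-type list and 76.6% of the knockout list, and 9 fell. Of the 1604 that fell, 1536 were tested, 1107 also fell (69.0% and 77.7% of the lists) and 3 rose. The sign was the same for 1480 of the 1538 and for 1504 of the 1536. Of all genes tested in knockout, 591 passed the filter through the primed and 1220 through the naive libraries alone. The sign of such genes in knockout follows from the filter, so part of the shared signs and calls does too. The share with the same sign over all 12213 genes tested in both was not computed. Median differences over the genes tested in both were 1.59 in wild type and 1.33 in knockout for the first set and -1.70 and -1.49 for the second. The sets were chosen on the wild-type values, so these medians are a description.

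Whether the change of state itself differed was tested as an interaction over all 8 libraries normalized together, where a positive difference means a larger primed minus naive value in knockout. Of 13428 genes 406 were called higher (3.02%) and 548 lower (4.08%), together 7.1%, while 64.5% passed the p threshold alone. The split depended on scaling, with 702 higher and 427 lower after median centring and 109 and 2895 with deposited values, which shift the median of all genes from 0.021 to -0.59. Among the wild-type gains tested in knockout, 240 had a smaller change in knockout and 52 a larger one, and among the losses 152 had a smaller and 38 a larger one. These counts rest in part on the wild-type libraries that chose the sets. A further 232 gains and 68 losses did not pass the filter in knockout, and 78 and 18 of them were called smaller there. Of the 22 naive-state genes, 4 had a larger fall in knockout (Zfp57, Fbxo15, Manba and Esrrb), and 0 had a smaller one, although with median centring or cyclic loess 1 was called smaller. Among the primed-state genes Fgf5, Cdh2, Pim2 and Sall2 had larger rises, and Fgf15 and Car4 had smaller ones. Tcf15 was also called lower in this test, with a difference of -0.44 in knockout and 1.08 in wild type. With deposited values the primed-state list had 2 genes higher and 7 lower. The call for Esrrb (-1.14) was lost with median centring and that for Cdh2 (1.58) with deposited values.

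**Figure D3:**
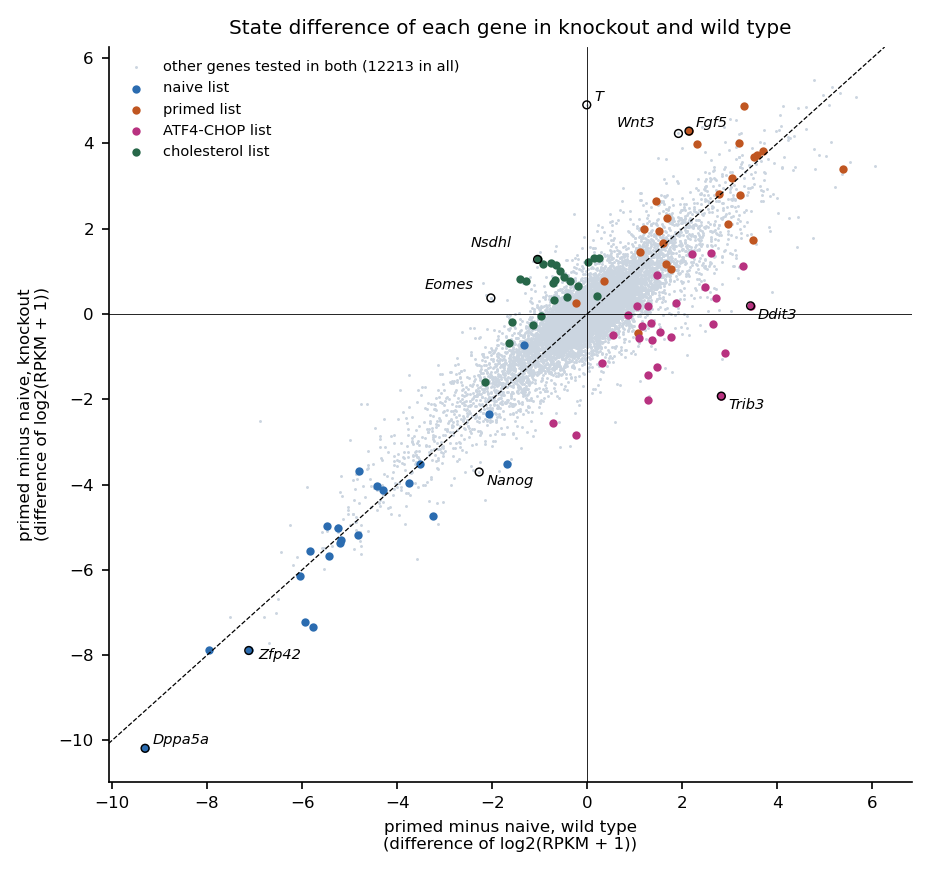
Primed minus naive difference of each of 12213 genes tested in both genotypes, wild type on the x axis and knockout on the y axis, each in units of log2(RPKM + 1), with 4 gene lists coloured and 10 genes labelled; the dashed line marks equal differences. Naive and primed lists lie along the line, ATF4-CHOP genes below it on the right, cholesterol genes above it on the left, and T at a knockout difference of 4.90 with a wild-type difference of -0.0084.

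Of the 10 named genes with the largest differences in favour of knockout, T, Wnt8a, Wnt3 and Eomes belong to the primitive streak, the site where the epiblast forms mesoderm and endoderm. T, which encodes the T-box factor Brachyury, stood at 0.461 and 0.404 RPKM in the naive and 42.7 and 41.6 RPKM in the primed knockout libraries, against 1.86 and 1.48 in naive and 1.64 and 1.65 RPKM in primed wild type. Both primed knockout libraries were above all others, and the difference of the state effect was 4.92 ± 0.100 (SE; adjusted p = 5.43e-08). Wnt3, the ligand gene that starts streak formation, had 22.6 and 22.2 RPKM in primed knockout and 2.92 and 2.75 in primed wild type, with all naive libraries under 0.2 RPKM (2.55 ± 0.079, SE; adjusted p = 2.60e-07). Wnt8a, another streak ligand gene, had 21.6 and 21.2 RPKM in primed knockout, 0.468 and 0.234 in primed wild type and 2.81 and 2.76 in naive knockout (2.91 ± 0.12, SE; adjusted p = 7.77e-07). Each of these genes was highest in both primed knockout libraries. Eomes, a T-box gene of the streak and of endoderm, differed in another way, since it was low in primed wild type and in primed knockout no lower than in the naive libraries. The values were 6.37 and 6.62 RPKM in naive knockout, 8.499 and 8.796 in primed knockout, 6.49 and 5.99 in naive wild type and 0.9596 and 0.725 in primed wild type (2.34 ± 0.098, SE; adjusted p = 1.00e-06). Fst, which encodes the activin antagonist follistatin, had 14.2 and 15.5 RPKM in primed knockout against 1.76 and 2.15 in primed wild type (2.58). Of 11 tested streak and mesoderm genes 4 were called higher and 0 lower under this test. With deposited values 4 were higher and 2 lower. The list is not a uniform one, because within knockout 4 of its 8 tested genes rose and Wnt3a, Evx1 and Hhex fell. T, among those that rose, passed the filter within knockout through the primed libraries alone, so its direction there follows from it. The difference of -1.02 for Wnt3a went to -0.98 and -0.95, and was no longer called, without naive knockout replicate 1 or 2. Pax6, a neural factor gene that did not pass the filter within knockout, had 1.496 and 1.41 RPKM in primed knockout against 6.38 and 6.56 in primed wild type and under 0.3 RPKM in all naive libraries (-1.62 ± 0.076, SE; adjusted p = 1.75e-06).

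In the Nodal and activin list 3 of 19 tested genes were called lower and 0 higher in this test, and in the list of pluripotency genes of both states 3 of 20 lower and 0 higher. With deposited values 7 and 8 were lower, and after median centring the pluripotency list had 2 lower and 1 higher. Lefty1 reached 25.1 and 23.8 RPKM in primed knockout and 234 and 250.1 RPKM in primed wild type, with naive levels under 3 RPKM throughout, a difference of -2.76 ± 0.072 (SE; adjusted p = 1.16e-07). Gdf3 was at 0.212 and 0.185 RPKM in primed knockout and 3.23 and 3.97 in primed wild type, from 65.2 and 64.8 in naive knockout and 57.4 and 57.3 in naive wild type (-2.12 ± 0.096, SE; adjusted p = 1.44e-06). Nanog had 44.00 and 44.1 RPKM in primed knockout and 109 and 108 in primed wild type, and its larger fall in knockout (-1.54 ± 0.042, SE; adjusted p = 1.52e-07) was no longer called after median centring. In Lefty1, Gdf3 and Nanog the primed knockout libraries were below the primed wild-type ones. Fgf5 behaved differently from them, at 22.6 and 21.9 RPKM in primed knockout and 3.59 and 3.47 in primed wild type (2.401 ± 0.070, SE; adjusted p = 2.05e-07).

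**Figure D4:**
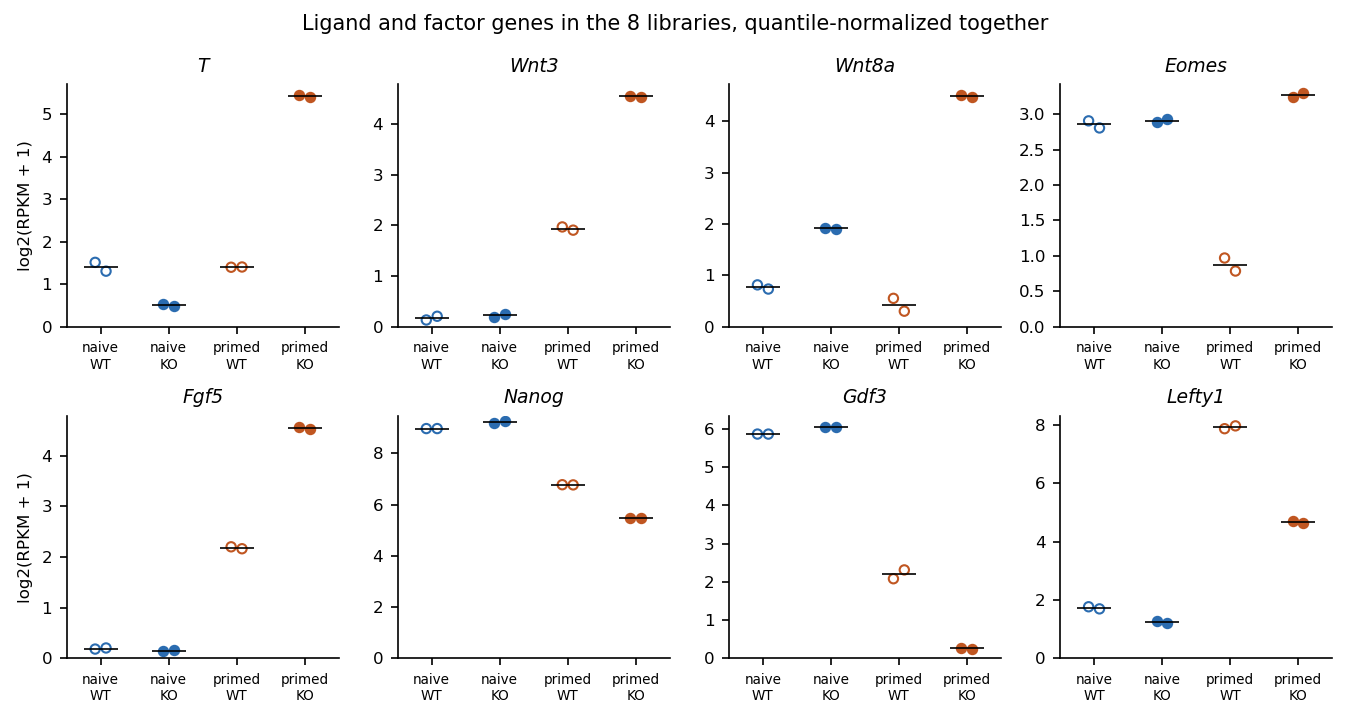
Levels of 8 genes in the 8 libraries, normalized together, as log2(RPKM + 1), with wild-type libraries as open and knockout libraries as filled circles, naive in blue and primed in orange; black bars are means of 2 libraries. T, Wnt3, Wnt8a and Fgf5 are highest in the primed knockout libraries, and Nanog, Gdf3 and Lefty1 are lower in the primed knockout than in the primed wild-type libraries.

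Of the 41 lists, the one with the most called differences between genotypes was the ATF4-CHOP stress response, a programme in which the factors ATF4 and CHOP induce genes of amino acid supply and of feedback when protein synthesis is stressed. In wild type 22 of its 27 genes rose from naive to primed and 0 fell, with a median of 1.48. In knockout 3 rose and 7 fell, with a median of -0.29. The test of the difference called 23 of 27 lower and 0 higher, with a median of -1.89 beside 0.021 over all genes, and between 21 and 26 were called lower under the other scalings. The pseudokinase gene Trib3, a feedback inhibitor of the programme, stood at 18.01 and 18.4 RPKM in naive and 4.42 and 4.04 RPKM in primed knockout, against 20.5 and 19.4 in naive and 147 and 164 RPKM in primed wild type. The primed wild-type libraries were thus above and the primed knockout libraries below all naive ones (-4.78 ± 0.082, SE; adjusted p = 4.19e-08). Ddit3, the gene of CHOP itself, had 10.1 and 9.55 RPKM in naive and 11.5 and 11.1 RPKM in primed knockout, and 8.47 and 7.97 in naive and 104 and 109 RPKM in primed wild type (-3.35 ± 0.062, SE; adjusted p = 4.19e-08). Within knockout its difference of 0.19 was not called and turned to -0.17 with deposited values. Chac1, a glutathione-degrading enzyme gene, had 2.02 and 2.14 RPKM in primed knockout and 69.7 and 80.9 in primed wild type (-3.89 ± 0.14, SE; adjusted p = 5.67e-07). Asns, the asparagine synthetase gene, was at 496 and 543 RPKM in naive and 68.5 and 70.7 RPKM in primed knockout and at 543 and 551 in naive and 460.2 and 449.5 RPKM in primed wild type, so that only the primed knockout libraries stood far below the rest. In knockout it fell by 2.83, Nupr1 by 2.55, the alanine transaminase gene Gpt2 by 2.01 and Trib3 by 1.93. The members that rose in knockout were Slc7a11 (1.42), Ddit4 (1.397) and Stc2 (1.13), and their wild-type differences were 2.61, 2.21 and 3.29. The call for Stc2 was lost with deposited values. Within knockout Nupr1 passed the filter through the naive and Slc7a11 through the primed libraries alone, so their direction there follows from it.

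ATF4 binds with C/EBP partners at a composite site, searched here as TGATGNAA on both strands of the 250 bases before each RefSeq start site. Of 27 members 23 were matched, and 6 held it (Asns, Atf3, Chac1, Nupr1, Slc7a11 and Vldlr), beside 3.91% of all 27025 genes. Members of this list are known for such sites, so the count is a description of the list and not of these libraries. The promoters of 3 of them are shown as examples of matches in genes whose change differed between genotypes (-3.89 for Chac1, -2.61 for Asns and -1.86 for Nupr1). They lie at chr2:119350992-119351241 on the + strand, chr6:7693210-7693459 on the - strand and chr7:126625471-126625720 on the - strand (GRCm38.p6), are written toward the start site, and have the match in capitals.
Chac1: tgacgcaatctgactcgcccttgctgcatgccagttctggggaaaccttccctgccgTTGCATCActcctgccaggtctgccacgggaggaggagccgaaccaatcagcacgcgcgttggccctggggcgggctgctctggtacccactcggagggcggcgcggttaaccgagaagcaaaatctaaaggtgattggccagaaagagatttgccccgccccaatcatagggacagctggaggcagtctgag
Asns: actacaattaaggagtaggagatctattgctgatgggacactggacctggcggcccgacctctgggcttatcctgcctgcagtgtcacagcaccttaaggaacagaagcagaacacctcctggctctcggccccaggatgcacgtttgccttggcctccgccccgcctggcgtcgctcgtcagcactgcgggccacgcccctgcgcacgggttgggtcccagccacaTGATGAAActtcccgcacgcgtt
Nupr1: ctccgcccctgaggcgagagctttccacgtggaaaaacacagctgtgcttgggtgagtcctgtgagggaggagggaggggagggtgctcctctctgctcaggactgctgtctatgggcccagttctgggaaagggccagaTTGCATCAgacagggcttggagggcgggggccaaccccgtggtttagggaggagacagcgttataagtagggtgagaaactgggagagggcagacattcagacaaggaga
The match begins 193 bases before the start site in Chac1, 23 bases before it in Asns and 110 bases before it in Nupr1, on the opposite strand in Chac1 and Nupr1.

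Sterol synthesis went the other way. The cholesterol list holds enzymes from acetyl-CoA to cholesterol, together with genes of sterol uptake and of the SREBP2 control system, which induces the pathway when cells lack sterols. In knockout 8 of 23 tested genes rose and 1 fell, with a median of 0.78, and with deposited values 2 rose and 2 fell. In wild type 0 of 24 rose and 7 fell, with a median of -0.69. The difference was called higher for 17 of 24 genes and lower for 0, with a median of 1.15, and for between 7 and 21 genes under the other scalings. Nsdhl, a sterol dehydrogenase gene, had 15.2 and 15.9 RPKM in naive and 37.4 and 38.9 RPKM in primed knockout, against 33.4 and 33.99 in naive and 15.9 and 15.04 RPKM in primed wild type. The 2 genotypes thus held mirrored levels in the 2 states (2.31 ± 0.056, SE; adjusted p = 9.57e-08). Its rise in knockout of 1.28 fell short of 2-fold with deposited values. Pmvk, Sc5d and Fdps also rose in knockout, by 1.32, 1.32 and 1.21, and the call for Pmvk was likewise lost with deposited values. The difference between genotypes for Pmvk (1.02) was no longer called without naive knockout replicate 1 (0.98), naive wild-type replicate 1 (0.98), primed knockout replicate 2 (0.99) or primed wild-type replicate 1 (1.00). Msmo1, a sterol oxidase gene, had a difference of 0.78 in knockout, which was not called, and of -1.297 in wild type. Insig1, which retains SREBP in the endoplasmic reticulum, fell in knockout by 1.59. The SREBP core motif TCACNCCA was found in 2 of 16 matched members, Msmo1 and Srebf2, and in 4.20% of all genes. The Msmo1 stretch is shown as the match in a gene whose change differed between genotypes (2.100), at chr8:64733579-64733828 on the - strand (GRCm38.p6), with the match in capitals 177 bases before the start site.
Msmo1: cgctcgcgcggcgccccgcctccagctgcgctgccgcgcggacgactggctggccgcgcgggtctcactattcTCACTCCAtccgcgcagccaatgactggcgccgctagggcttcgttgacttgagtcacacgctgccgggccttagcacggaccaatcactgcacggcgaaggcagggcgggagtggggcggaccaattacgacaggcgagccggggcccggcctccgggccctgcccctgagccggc
In the related fatty acid list 3 of 13 genes rose in knockout, Fads2 (1.55), Fasn (1.26) and Acaca (1.16), and Scd1 and Elovl6 fell. The Acaca call was lost with deposited values. In wild type 0 of 14 rose and 6 fell, and the difference was called higher for 5 and lower for 0.

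**Figure D5:**
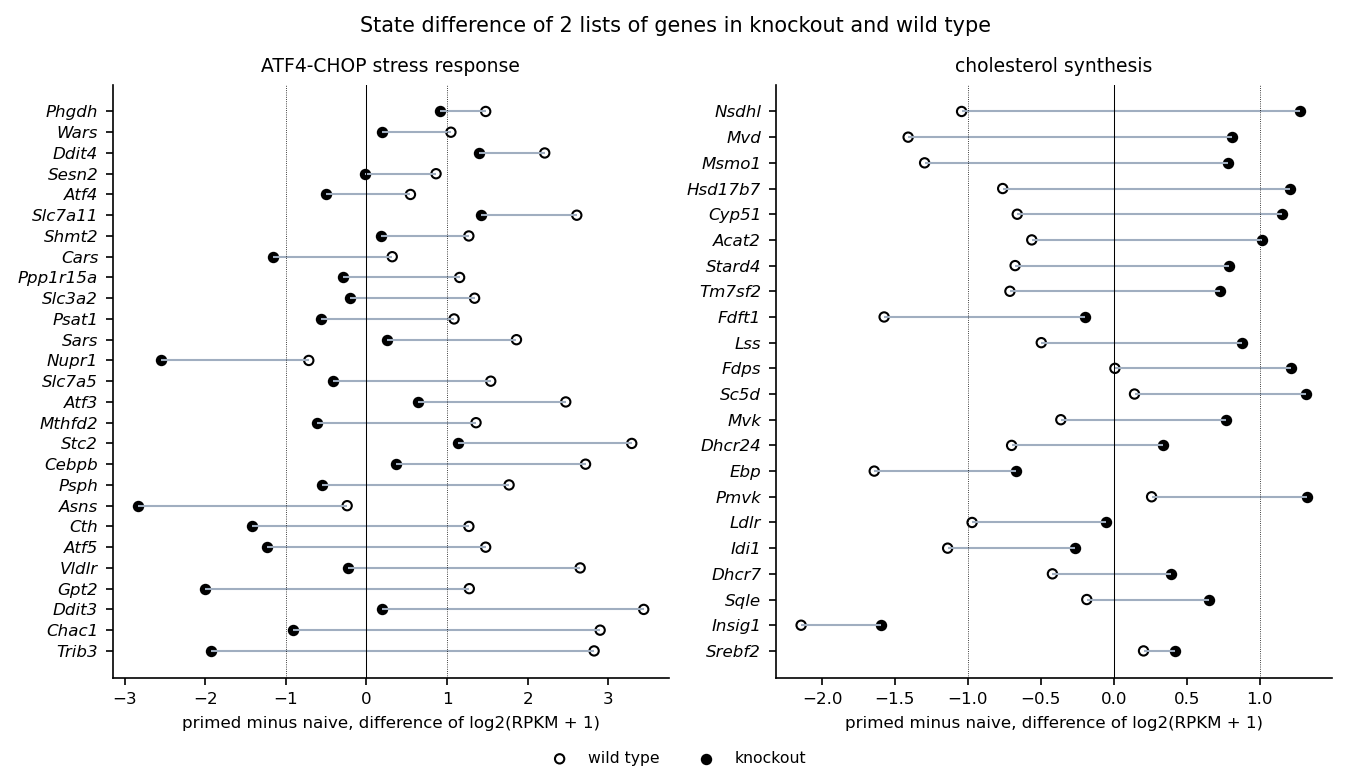
Primed minus naive difference, in units of log2(RPKM + 1), of 27 ATF4-CHOP genes (left) and 22 cholesterol synthesis genes (right) in wild type (open circles) and knockout (filled circles), with dotted lines at the 2-fold limits. Filled circles lie to the left of open ones for all 27 genes on the left and to the right of them for all 22 genes on the right.

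Other lists differed in part. Over all tested genes 10.9% rose and 11.4% fell in knockout, and 13.6% and 12.3% in wild type. The difference was called higher for 3.02% of all genes and lower for 4.08%. Of 27 p53 target genes 1 rose and 3 fell in knockout and 1 rose and 7 fell in wild type, and the difference was called higher for 9 and lower for 3, or for 3 and 6 with deposited values. Of the genes in these counts, Pmaip1 fell in knockout by 1.097 but was at -0.99 and not called without primed knockout replicate 1, and the difference for Gdf15 of -1.204 went to -0.95 and was not called without primed wild-type replicate 2. Perp, a desmosome gene that p53 induces, had 25.02 and 26.5 RPKM in naive and 139 and 135 RPKM in primed knockout and 12.4 and 14.3 in naive and 22.7 and 22.1 RPKM in primed wild type (1.66). In the glycolysis and hypoxia list 5 of 29 tested genes rose and 2 fell in knockout, against 13 and 2 of 31 in wild type, and the difference was called lower for 8 and higher for 1. With deposited values 3 rose and 3 fell in knockout, and the difference was lower for 12 and higher for 0. Slc2a3, a glucose transporter gene, was among the 2 that fell, with 199.8 and 203 RPKM in primed knockout and 763 in both primed wild-type libraries (-2.15 ± 0.035, SE; adjusted p = 4.19e-08). The other was Pfkp, a phosphofructokinase gene, which fell by 3.68. Of 14 YAP-TEAD target genes 4 rose and 1 fell in knockout and 9 rose and 1 fell in wild type, and the difference was called lower for 4, and for between 4 and 7 under the other scalings.

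Calls in opposite directions were made for 9 genes that fell in knockout and rose in wild type, and for 3 that rose in knockout and fell in wild type. The 3 were Nsdhl, the homeobox gene Nkx2-9 and Igdcc3, and with deposited values their rises in knockout were no longer called. Nkx2-9 had 10.8 and 7.88 RPKM in naive and 25.4 and 20.5 RPKM in primed knockout against 2.65 and 2.33 in naive and 0.691 and 0.607 RPKM in primed wild type. The largest falls in knockout among the 9 were those of Gpt2, the mitochondrial protein gene Chchd10, Trib3, Grb10 and the cystathionine lyase gene Cth. Chchd10 stood at 135 and 132 RPKM in naive and 38.5 and 32.6 RPKM in primed knockout, and at 140.1 and 161 in naive and 353 and 381 RPKM in primed wild type. Grb10, an imprinted adaptor gene, was at 16.8 and 16.9 in naive and 4.905 and 5.398 RPKM in primed knockout and at 24.7 and 24.9 in naive and 53.7 and 57.7 RPKM in primed wild type. In both genes the primed knockout libraries were lowest and the primed wild-type libraries highest.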

How the data were processed

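RNA was measured by sequencing of total RNA after removal of ribosomal RNA. The deposited values are RPKM per gene, with no value at 0, so the authors had adjusted them beyond plain RPKM. The submitters' processing notes name cutadapt 1.9, STAR 2.5.2b, featureCounts 1.5.1, affy and the build mm9, and neither the scaling method nor the strand setting is given. Libraries were grouped by their titles, and replicates carry only numbers. The deposited values of a comparison's own libraries were quantile-normalized over all 24505 listed genes, converted to log2(RPKM + 1), and tested with limma 3.58.1 in R 4.3.3 (trended variance, Benjamini-Hochberg adjustment over all tested genes). Genes needed at least 1 deposited RPKM in 2 libraries. A call needed an adjusted p under 0.05 and a 2-fold difference. Knockout and wild type were fitted apart, and the interaction was fitted on all 8 libraries on their common scale, so its value is not exactly the knockout minus the wild-type difference. Depth is unknown, and no interval for counting error was formed. Names altered to dates affect 26 listed genes, and spike-in sequences are not among the listed genes.

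The members and the 41 gene lists were chosen with earlier results of these data known. Genes were named by a fixed rule: state and lineage markers, the 10 largest called changes in each direction without overlap of libraries and with 5 RPKM in the higher state, up to 4 called genes per list and direction, the 10 largest called differences between genotypes in each direction with 5 RPKM in some group, and up to 5 genes called oppositely in each direction, skipping dates and unnamed gene models. Other list members that are named were chosen after their values were seen. The fits were tested on simulated data: in the knockout comparison of 11810 genes, 67 of 67 genes changed 2.5-fold and 66 of 66 changed 4-fold were called, 0 of 67 changed 1.5-fold were called, and 0 of 11610 unchanged genes were called. Of the unchanged genes 10 passed the adjusted p threshold alone. The changed genes were few and were drawn only from those with a mean level above 10 RPKM. Weakly expressed genes and changes as widespread as in these data were therefore not tried. Alternatives were deposited values, median centring, cyclic loess, ranks, another pseudocount, other filters, limma's treat, no intensity trend, no minimum fold, a replicate block, all 8 libraries together, and leaving out each library, where a lone library is assumed to vary like the others. Promoter sequences come from RefSeq (GRCm38.p6), matched by symbol, while no coordinates were read from mm9. Motifs were searched as exact letters, and a gene counts if any of its start sites holds one. Values of 2 list members are not reported here, though list counts and medians include them.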

Additional observations from a re-analysis of the deposited data

Results flagged for a closer look

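The primed minus naive difference of 24 named genes differed between the libraries labelled knockout and wild type by the interaction term in limma over all 8 libraries, each with an adjusted p under 0.05 and at least a 2-fold size. The values are the knockout minus the wild-type difference on the log2(RPKM + 1) scale. Among regulators of the primitive streak and of signalling, the difference was 4.92 for T, 2.91 for Wnt8a, 2.55 for Wnt3, 2.34 for Eomes, 2.58 for Fst and 2.40 for Fgf5. The other genes with a positive value were Cbr3 (2.43), Stra8 (2.40), Galnt12 (2.39), Nsdhl (2.31), Nkx2-9 (2.30) and Igdcc3 (2.16). Stra8 was lower in knockout than in wild type in both states and fell less from its lower naive level.

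Negative values were found for genes of the ATF4-CHOP list, with Trib3 at -4.78, Chac1 at -3.89, Ddit3 at -3.35, Gpt2 at -3.28 and Cth at -2.65. The difference was -4.01 for H2-Bl, whose reads may be shared with other MHC class I genes. It was -3.48 for Tmem63a, -3.31 for Fut1, -3.26 for Hhip, -3.17 for Chchd10, -3.13 for Fam129a and -2.67 for Grb10. The labels do not say if the wild-type cells received 4-OHT.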

How the results depend on the processing

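In knockout, deposited values gave 2144 lower genes, a filter of 5 RPKM gave 862 higher ones, and the adjusted p without the 2-fold limit gave 5313 higher and 4881 lower. In wild type the same settings gave 2761 higher with deposited values, 1026 lower with the 5 RPKM filter, and 5715 and 5269 without the fold limit. The interaction gave 109 higher and 2895 lower with deposited values, 702 higher after median centring, 747 and 962 with a pseudocount of 0.1, 4513 and 4149 without the fold limit, and 158 and 234 with limma's treat against a 2-fold difference. Leaving out 1 library gave 1337 to 1386 higher and 1412 to 1459 lower genes in knockout, 1739 to 1806 and 1580 to 1623 in wild type, and 396 to 435 and 528 to 580 in the interaction. The cause of these shifts was not tested.

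Signs turned in a few results. Pou5f1 in knockout was -0.076 with deposited values and -0.17 with cyclic loess, and Ddit3 was -0.17 with deposited values. With deposited values the list medians were -0.089 for Nodal, -0.0035 for BMP, -0.014 for ribosome biogenesis, -0.095 for p53 and -0.16 for G2 and mitosis, and p53 was -0.0085 with cyclic loess. Median centring gave 0.038 for the INO80 complex, 0.079 for the TCA cycle, 0.21 for the respiratory chain and 0.019 for DNA replication. Leaving out 1 library gave -0.048 to 0.014 for the INO80 complex and -0.024 to 0.047 for the respiratory chain. Without a filter the median was 0.016 for trophoblast, 0.11 for YAP-TEAD and 0.00094 for blood markers. Over 261 results for single genes, 3983 alternative values kept direction and side of the threshold, 89 lost the call, 18 gained it and 3 changed sign.

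Same-numbered libraries share only a number, and their deviations from the group means were correlated at 0.060. With the replicate number as a block, 1360 higher and 1424 lower genes were called in knockout, 1771 and 1605 in wild type, and 406 and 549 in the interaction. Depth is unknown, so what it limits cannot be stated.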

Other observations

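Other lineage and surface genes in the libraries labelled knockout are given here as values from naive to primed. Of 10 tested trophoblast genes 3 rose and 5 fell. The keratin genes Krt18 (4.01) and Krt8 (3.24) and the imprinted gene Peg10 (1.29) rose, while the factor genes Elf3 (-3.63), Tead4 (-2.87), Tfap2c (-2.65) and Tfap2a (-2.01) fell. Of 7 tested endoderm genes 3 rose, all of basement membrane chains (Lamb1, 3.18, Col4a2, 1.77, and Col4a1, 1.41), and Lama1 fell (-3.24). Among 12 tested neural genes Nes (4.01), Map2 (2.15), Zic1 (1.98) and Irx3 (1.28) rose. Tubb3, a neuronal tubulin gene, fell (-1.53) from 69.4 and 67.6 RPKM in the naive to 23.1 and 23.1 RPKM in the primed libraries, and 3 neural genes fell with deposited values.

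Of 8 tested genes of MHC class I and antigen presentation 5 rose and 0 fell, or 3 and 1 with deposited values. The peptide transporter gene Tap1 went from 3.59 and 3.24 RPKM to 22.8 and 22.05 RPKM (2.41), and the immunoproteasome gene Psmb9 rose by 1.46. H2-K1 and H2-Q4 also rose, H2-K1 losing its call with deposited values, and reads of these similar genes may be shared. H2-Q4 and Psmb9 were under 1 deposited RPKM in both naive libraries and passed the filter through the primed libraries alone. Their rise, and in part the count, follows from it. Of 25 DNA repair genes Brca2 (-1.26) and Msh6 (-1.22) fell and 0 rose, where 11.4% of all tested genes fell and 10.9% rose. The Msh6 call was lost with median centring. With deposited values 6 of the 25 fell, beside 2144 of all 12452 genes.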
